A study of Homo sapiens with 15 samples.

Results

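The MYB locus and the stretch that separates it from HBS1L were studied through the peaks whose summit lay in a window of 280 kb on chromosome 6, from 135280000 to 135560000 in hg19. The window was set to hold HBS1L, the enhancers between the genes, and MYB. Of the 198298 peaks in the 6 deposited lists, 115 were members: 29 GATA2, 12 RUNX1 and 11 SMC3 peaks in Q592* cells, and 26 GATA2, 14 RUNX1 and 23 SMC3 peaks in WT cells. Joined wherever they overlapped by at least 1 bp, they formed 50 sites, numbered here from 1 at the lowest coordinate to 50 at the highest. By the gene order of the RefSeq table, HBS1L lies on the low-coordinate side and MYB on the high side.

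Q592* and WT name cells of TF-1, an erythroleukemia line, transduced with an inducible vector for RAD21 that ends early at codon Q592* or for wild-type RAD21. RAD21 is the cohesin subunit that closes the ring formed with SMC3. Both were grown with cytokines and given doxycycline for 6 days, so WT cells carry a vector too. Whether a line is 1 clone, and how much of its own RAD21 the cells retain, is not given in the sources used here. Cells were crosslinked for 10 minutes with 1% formaldehyde before chromatin bound by GATA2, RUNX1 or SMC3 was precipitated, and RNA was not analysed here. By the labels there were 2 libraries per target and line, with 1 for Q592* RUNX1, and 2 inputs per line, 15 samples in all. Each list is 1 pooled call for its line and target, so each group has 1 value per site, no spread between libraries can be shown and no test between the lines was possible. The recovered ChIP totals lay between 93.4 and 106.7 M (M, 1000000) reads in Q592* and between 103.5 and 107.5 M in WT.

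MYB encodes a transcription factor that keeps blood progenitors dividing and whose level falls as red cells mature. HBS1L encodes a GTPase that helps to release stalled ribosomes. The DNA between them carries distal enhancers of MYB, which in red cell precursors loop to the MYB promoter and are bound by GATA1 and its partners, and common variants there are associated with fetal haemoglobin. GATA2 is the GATA factor of earlier progenitors, RUNX1 is a factor of blood stem and progenitor cells, and SMC3 is a core subunit of cohesin, the ring complex that holds chromatin loops, often at sites of the insulator protein CTCF.

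The promoters of both genes are shown because they are the gene ends that the enhancers of the window lie between. They are the 250 bases before each RefSeq start site, 5′ to 3′ on the gene's strand, in GRCh38.p14. This build is not that of the peaks, so whether any peak lies on them was not determined. MYB is at chr6:135181058-135181307 on the plus strand and HBS1L at chr6:135054823-135055072 on the minus strand. Capitals mark CCCTC or its reverse complement, a word found in the core of the CTCF motif.
MYB: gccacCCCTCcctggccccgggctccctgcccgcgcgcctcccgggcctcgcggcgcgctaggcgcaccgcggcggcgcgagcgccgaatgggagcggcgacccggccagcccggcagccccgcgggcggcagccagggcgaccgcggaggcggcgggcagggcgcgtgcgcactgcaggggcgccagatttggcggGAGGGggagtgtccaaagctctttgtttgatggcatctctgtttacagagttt
HBS1L: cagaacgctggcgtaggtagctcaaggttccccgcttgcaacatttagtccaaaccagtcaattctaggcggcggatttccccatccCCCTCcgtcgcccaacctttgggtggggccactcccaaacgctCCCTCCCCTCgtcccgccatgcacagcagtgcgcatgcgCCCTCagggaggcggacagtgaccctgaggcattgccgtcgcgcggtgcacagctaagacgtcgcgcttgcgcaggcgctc
Counted on both strands with overlaps allowed, CCCTC occurred 2 times before MYB and 4 times before HBS1L, and 66.6% of 35116 promoters of this length held it. GATA, the core of the GATA factor motif, occurred in neither, and 45.6% of promoters held it. TGNGGT, which includes the RUNX word TGTGGT, also occurred in neither, and 37.7% of promoters held it. Their GC content was 75.6% for MYB and 64.0% for HBS1L, against a median of 58.0% over all promoters.

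The window was dense in peaks of all targets and both lines. A window of this length held on average 5.34 GATA2, 1.41 RUNX1 and 2.97 SMC3 peaks in Q592* and 3.52, 0.87 and 3.83 in WT, when chromosomes were tiled up to their last peak. Of 11057 such tiles, 0.516% held at least 29 Q592* GATA2 peaks and 0.57% at least 26 WT GATA2 peaks. For RUNX1 these shares were 0.172% in Q592* and 0.0814% in WT, and for SMC3 1.97% and 0.271%. Tiles over assembly gaps and unmappable sequence were not left out, which lowers the averages and the shares. The window was also chosen with earlier results of these data known, so the shares do not measure how rare it is. Over both lines GATA2 was found at 37 of the 50 sites, SMC3 at 23 and RUNX1 at 12, which is the order of their region counts over the genome, 63989, 45109 and 17219.

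**Figure D1:**
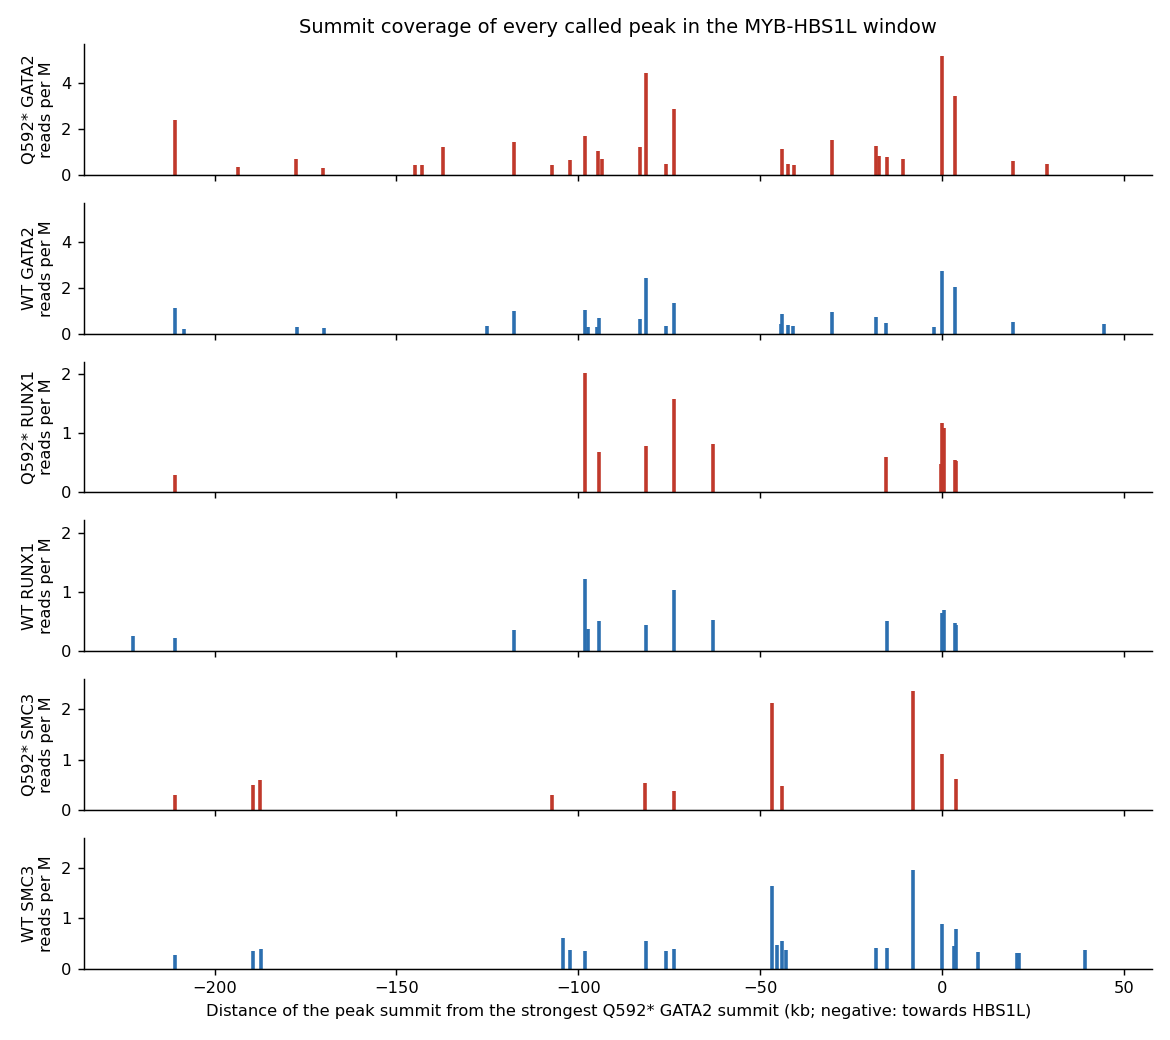
Summit coverage of each of the 115 peaks, in ChIP reads over the summit per M ChIP reads (vertical axes, one scale per target), against distance in kb from the strongest Q592* GATA2 summit (horizontal axis, negative towards HBS1L). Red rows are Q592* and blue rows WT. The tallest GATA2 bars stand at the same places in both lines and are taller in Q592*, and the WT SMC3 row holds 23 bars against 11 in Q592*.

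The strongest GATA2 peak of the window was the same in both lines. It lay at site 42, from 135512535 to 135513977 on the MYB side, and distances below are from its Q592* summit at 135513038. Coverage there, counted as ChIP reads over the summit per M ChIP reads, was 5.17 in Q592* (95% Poisson interval 4.75 to 5.62) and 2.73 in WT (2.42 to 3.06). These intervals cover counting error only. The peak ranked 380 of 59009 in the Q592* list and 177 of 38962 in the WT list by −log10 q, the authors' measure of a summit's significance after adjustment for many positions, so it belonged to the strongest 0.644% and 0.454% of the lists. Its summits lay 4 bp apart. Next in both lines by coverage was site 24 (135431143 to 135432017), 81.5 kb towards HBS1L, with 4.43 reads per M in Q592* and 2.40 in WT.

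The next 3 GATA2 sites came in the same order in each line. Site 43, 3.7 kb beyond site 42 (135516106 to 135517008), had 3.43 reads per M in Q592* and 2.04 in WT. Site 26, 73.7 kb towards HBS1L (135438958 to 135439650), had 2.85 in Q592* and 1.31 in WT. Site 2, near the far HBS1L end of the window (135301909 to 135302507), had 2.39 in Q592* and 1.13 in WT. No other WT GATA2 peak exceeded 1.04, at site 18, and no other Q592* GATA2 peak exceeded 1.70, at the same site.

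GATA2 coverage was higher in Q592* at every one of the 18 GATA2 regions called in both lines, as at 98.5% of the 33241 shared GATA2 regions of the genome. The log2 ratio of Q592* over WT had a median of 0.71 in the window and 0.81 over the genome, and ranged from 0.29 to 1.21. Its 95% counting interval lay above 0 at 14 of 18 regions, compared with 74.4% of shared regions genome-wide. The largest ratios were 1.21 at site 7 (0.689 reads per M in Q592*, 0.298 in WT) and 1.12 at site 26. The smallest, 0.29, was at site 45, 19.6 kb beyond site 42, with 0.604 reads per M in Q592* and 0.493 in WT, and its interval (-0.26 to 0.85) included 0. The window's median thus lay between the quartiles of the genome-wide ratio, 0.56 and 1.04.

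**Figure D2:**
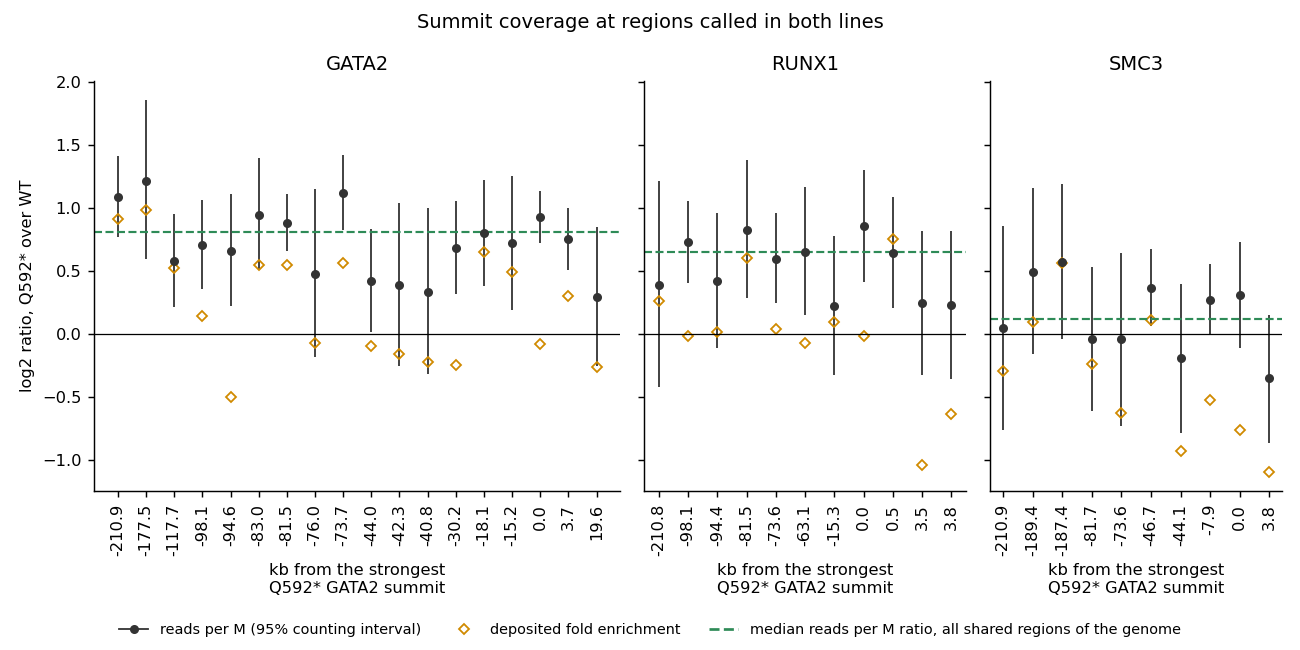
Log2 ratio of Q592* over WT (vertical axis) at each region called in both lines, placed in genome order and labelled by distance in kb from the strongest Q592* GATA2 summit. Filled points are the ratio of summit reads per M with 95% counting intervals, open diamonds the ratio of the deposited fold enrichments, and dashed lines the genome-wide median of the reads ratio. All 18 GATA2 and all 11 RUNX1 filled points lie above 0, whereas SMC3 points lie on both sides.

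The difference between the lines was smaller in the deposited fold enrichments. Fold enrichment, a value of the authors' as is −log10 q, is the summit pileup over the local background, each with 1 added, and at site 42 it was 21.9 in Q592* and 23.2 in WT although coverage was higher in Q592*. The local background there was 3.84 times the genome-wide value in Q592* and 1.93 times in WT. Over the 18 shared GATA2 regions the fold was higher in Q592* at 10, against 80.6% genome-wide, and the median log2 ratio of the folds was 0.22, against 0.48 genome-wide. The local background, each relative to its list's genome-wide value, was higher in Q592* at 17 of 18, against 68.4% genome-wide, with a median log2 ratio of 0.49 in the window and 0.21 genome-wide. With the local background subtracted from the coverage, an alternative added after the data were seen, all 18 ratios stayed above 0 with a median of 0.74. Why the local background was higher in Q592* here was not tested.

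GATA2 regions called in 1 line alone were weaker than most of those called in both. Of 37 GATA2 regions, 18 were shared (48.6%, against 51.9% genome-wide), 11 were Q592*-only (29.7%, against 40.1%) and 8 WT-only (21.6%, against 7.96%). The Q592*-only peaks had 0.283 to 1.21 reads per M and a −log10 q of 5.54 to 26.5, and the WT-only peaks 0.214 to 0.418 reads per M and a −log10 q of 4.12 to 9.33. The median −log10 q of the Q592*-only peaks was 10.2, against 44.6 for Q592* peaks in shared regions, and that of the WT-only peaks 5.77, against 35.8 for WT peaks in shared regions. All 8 WT-only peaks fell below a −log10 q of 10, and with both lists held to that value none remained. Some lay close to a Q592* GATA2 peak without overlapping it. Site 20 ended at 135418103 and the Q592* peak of site 21 began at 135418147. Site 30 ended at 135468705 and the Q592* peak of site 31 began at 135468808. Site 9 began at 135342993 and Q592*-only site 8 ended at 135342869. With a −log10 q of at least 10, the lists held 20 Q592* and 12 WT peaks in the window. Cut to equal list lengths they held 20 Q592* and 26 WT peaks, so the order of the counts depends on this choice. At equal list lengths 14 GATA2 regions were shared, 6 were Q592*-only and 12 WT-only, so the order of the 1-line classes depends on it too. The genome-wide shares above are of the uncut lists.

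The strongest Q592*-only GATA2 peaks by −log10 q were site 22 at 26.5 (135419453 to 135419678) and site 17 at 18.8 (135410477 to 135410786). Site 22 had 0.708 reads per M and no other target. Site 39, 10.6 kb on the HBS1L side of site 42 (135502372 to 135502529), also had 0.708 reads per M, with a −log10 q of 11.8. Site 12 (135375762 to 135375961) had the highest coverage of the Q592*-only peaks, 1.21 reads per M, over a local background 9.48 times the genome-wide value, and a fold of only 2.16.

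**Figure D3:**
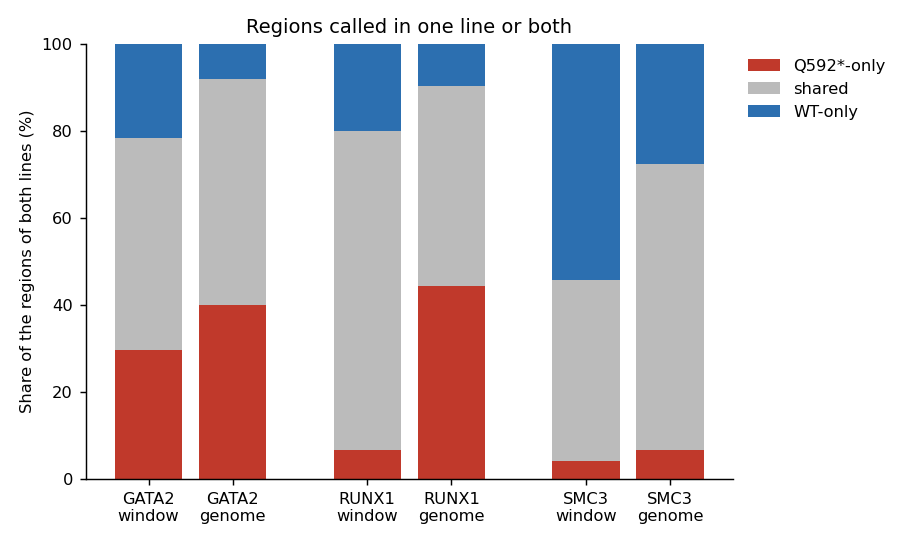
Share of regions called in Q592* only (red), in both lines (grey) and in WT only (blue), in percent, for each target in the window and over the genome. In the window WT-only regions made up 21.6% of GATA2, 20.0% of RUNX1 and 54.2% of SMC3 regions, against 7.96%, 9.59% and 27.6% over the genome.

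Most RUNX1 regions were called in both lines. Of 15 RUNX1 regions, 11 were shared (73.3%, against 46.0% genome-wide), 1 was Q592*-only (6.67%, against 44.4%) and 3 were WT-only (20.0%, against 9.59%). With the Q592* list cut to the length of the WT list these counts were 8, 0 and 6, and with a −log10 q of at least 10 in both lists they were 7, 1 and 2. The genome-wide shares are of the uncut lists, so whether the window still departs from the genome at these settings is not shown. The whole Q592* RUNX1 list was longer than the WT list, at 15582 and 9603 peaks, but the window held 12 Q592* and 14 WT peaks. The 3 WT-only peaks, at sites 1, 14 and 19, had 0.248 to 0.372 reads per M, and the lone Q592*-only peak, part of site 42, had 0.478.

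RUNX1 and GATA2 had their highest coverage at different sites. At site 18, 98.1 kb towards HBS1L (135414658 to 135415133), RUNX1 had 2.01 reads per M in Q592* (1.75 to 2.29) and 1.21 in WT (1.01 to 1.44). This peak ranked 470 of 15582 in Q592* and 198 of 9603 in WT. Site 26 came next, with 1.57 reads per M in Q592* and 1.04 in WT. At site 42 RUNX1 was split into 3 peaks in Q592*, with 0.478, 1.17 and 1.09 reads per M, and 2 in WT, with 0.649 and 0.697. Site 27, 63.1 kb towards HBS1L (135449768 to 135450037), carried RUNX1 alone in both lines, with 0.824 reads per M in Q592* and 0.525 in WT.

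RUNX1 coverage was higher in Q592* at 11 of 11 shared regions, against 97.4% genome-wide. The median log2 ratio was 0.60 in the window and 0.65 over the genome, with a range of 0.22 to 0.85. The counting interval lay above 0 at 6 of 11 regions, against 65.4% genome-wide. Relative to the genome-wide mean coverage of its own list, the median was 0.557 in the window and 0.61 genome-wide, and all 11 ratios stayed above 0. The ratio of the deposited folds had a median of 0.01, against 0.33 genome-wide, and was above 0 at 6 of 11 regions, against 73.2%. The local background was higher in Q592* at 10 of 11 regions, against 71.9%. With the local background subtracted, 9 of 11 ratios stayed above 0, and both exceptions were the peaks of site 43. RUNX1 in Q592* rests on 1 library.

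Most RUNX1 peaks lay on a GATA2 peak. In Q592* 11 of 12 RUNX1 peaks overlapped a GATA2 peak (91.7%, against 74.9%), and in WT 12 of 14 (85.7%, against 75.0%). Where they overlapped, the RUNX1 summit was a median of 71 bp from the nearest GATA2 summit in Q592* and 46 bp in WT. Of the GATA2 peaks, 8 of 29 in Q592* overlapped a RUNX1 peak (27.6%, against 19.5%) and 10 of 26 in WT (38.5%, against 18.3%). Of the RUNX1 peaks, 7 of 12 in Q592* overlapped an SMC3 peak (58.3%, against 25.1%) and 9 of 14 in WT (64.3%, against 49.2%).

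SMC3 had the smallest share of regions called in both lines. Of 24 SMC3 regions, 10 were shared (41.7%, against 65.6% genome-wide), 1 was Q592*-only (4.17%, against 6.84%) and 13 were WT-only (54.2%, against 27.6%). The lone Q592*-only peak, at site 15 (135405780 to 135406059), had 0.289 reads per M and lay on a GATA2 peak that was also Q592*-only. With the WT list cut to the length of the Q592* list, 15 WT peaks and 5 WT-only regions remained. With a −log10 q of at least 10 in both lists, 4 regions were shared and 4 WT-only. The genome-wide shares above are those of the uncut lists and cannot be set against these cut counts.

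The strongest SMC3 sites were the same in both lines and carried neither GATA2 nor RUNX1. Site 40, 7.9 kb on the HBS1L side of site 42 (135504750 to 135505417), had 2.37 reads per M in Q592* (2.06 to 2.70) and 1.96 in WT (1.70 to 2.25). Site 28, 46.7 kb on that side (135465902 to 135466914), had 2.12 in Q592* (1.83 to 2.44) and 1.64 in WT (1.41 to 1.91). By −log10 q their order differed: site 28 stood at 106.4 in Q592* and 94.6 in WT, and site 40 at 70.8 in Q592* and 94.7 in WT. The SMC3 peak of site 42, the next by coverage, had 1.11 reads per M in Q592* and 0.899 in WT.

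At most shared SMC3 regions no difference in coverage between the lines was detectable at this depth. The log2 ratio had a median of 0.16 in the window and 0.12 genome-wide, ranged from -0.35 at site 43 to 0.57 at site 6, and was above 0 at 6 of 10 regions, against 67.7% genome-wide. Its counting interval lay above 0 at 1 of 10 regions, site 28 (0.37, 0.06 to 0.67), against 10.3% genome-wide, and below 0 at none of the 10. The sign of the median depended on the scale. Relative to the genome-wide mean coverage of its own list, a scale that needs no fragment length, the median was -0.10 in the window and -0.14 genome-wide. On that scale the ratio at site 28 was 0.11 with an interval of -0.20 to 0.41, which includes 0, and the ratio at site 43 was -0.61 with an interval of -1.12 to -0.11, which does not. The ratio of the deposited folds had medians of -0.41 in the window and -0.10 genome-wide. The fold was higher in Q592* at 3 of 10 regions, against 42.7% genome-wide, and the local background at 7 of 10, against 48.9%. SMC3 lay on GATA2 at 7 of 11 peaks in Q592* (63.6%, against 21.2%) and at 11 of 23 in WT (47.8%, against 24.9%), and on RUNX1 at 5 of 11 in Q592* (45.5%, against 12.0%) and 8 of 23 in WT (34.8%, against 11.2%). Counted over GATA2 peaks, 7 of 29 in Q592* overlapped SMC3 (24.1%, against 11.7%) and 10 of 26 in WT (38.5%, against 26.3%).

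Nearly all WT SMC3 peaks without an overlapping Q592* SMC3 peak, here a partner, were weak. Of the 23 WT SMC3 peaks, 15 had a −log10 q under 10 and 3 of these had a partner, against 29.7% of such peaks genome-wide. The other 8 reached at least 10 and 7 of them had a partner, against 91.5%. The SMC3 peaks of the window were weaker than the list as a whole, with a median −log10 q of 9.66 in Q592* (24.7 in the list) and 8.65 in WT (18.2). The 1 stronger peak without a partner was site 16 (135408545 to 135408750), 104.3 kb towards HBS1L, with 0.609 reads per M (0.468 to 0.779) and a −log10 q of 19.9 in WT. No target was called there in Q592*.

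WT SMC3 peaks without a partner were found both on and away from GATA2 and RUNX1. Of 11 WT SMC3 peaks on a WT GATA2 or RUNX1 peak, 6 had a Q592* partner (54.5%, against 45.4% genome-wide), and of 12 on neither, 4 had one (33.3%, against 79.6%). By strength, 2 of 7 peaks on a factor with a −log10 q under 10 had a partner (26.3% genome-wide) and 4 of 4 at or above it (77.4%). On neither factor these counts were 1 of 8 (32.9%) and 3 of 4 (93.9%). Peaks on a factor that had no partner, at sites 18, 25, 36, 38 and 43, had 0.348 to 0.454 reads per M in WT, and GATA2 was called in both lines at each of these sites. Peaks on neither factor without a partner had 0.309 to 0.609 reads per M. Besides site 16, they were at site 17, where GATA2 was called in Q592*, at sites 29 and 32 near the strong site 28, and at sites 44, 46, 47 and 49 beyond site 42. Site 29 (135467470 to 135467738) had 0.473 reads per M and site 32 (135469906 to 135470291) 0.367. Beyond site 42 these WT values were 0.328 at site 44 (135522747 to 135522910), 0.309 at both site 46 (135533704 to 135533886) and site 47 (135534121 to 135534323), and 0.367 at site 49 (135552336 to 135552503). The lowest SMC3 coverage that was called at the genome-wide background was 0.214 reads per M in Q592* and 0.164 in WT, and a place without a call may hold coverage up to its local threshold.

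**Figure D4:**
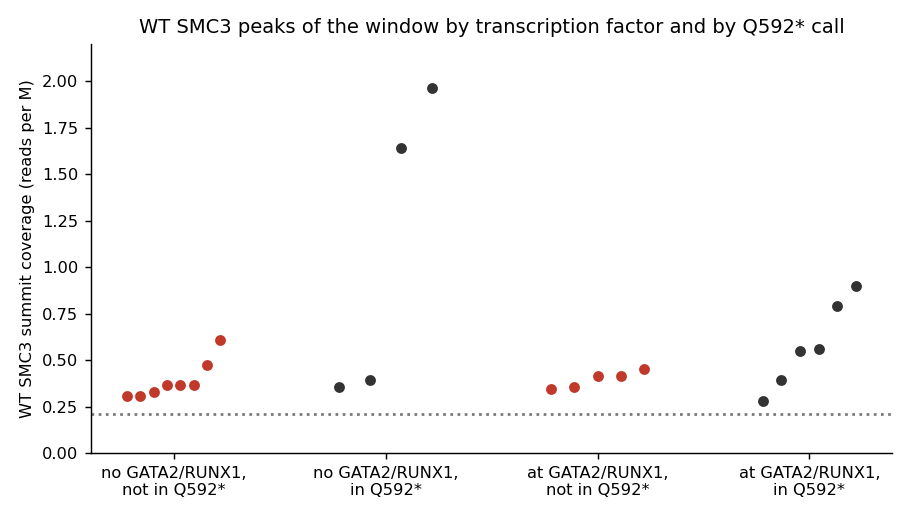
Summit coverage of the 23 WT SMC3 peaks in reads per M (vertical axis), split by overlap with a WT GATA2 or RUNX1 peak and by a Q592* SMC3 call (black with, red without). The dotted line is the lowest coverage called in the Q592* SMC3 list at the genome-wide background, 0.214. Red points lie between 0.309 and 0.609, and both points above 1.5 were called in Q592*. The red points had a WT local background of 1.45 to 3.71 times the genome-wide value. Over a raised local background a call needs more coverage than the dotted line, so that line is not their threshold.

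Sites with all 3 targets in a line were counted after joining the peaks of that line. They made up 5 of 34 sites in Q592* (14.7%, against 3.83% genome-wide) and 7 of 40 in WT (17.5%, against 5.78%). These counts were 1 in Q592* and 2 in WT with a −log10 q of at least 10, and 3 in Q592* and 6 in WT at equal list lengths. No genome-wide share is given at these 2 settings. The 5 Q592* sites, numbers 2, 24, 26, 42 and 43, were all 3-target sites in WT too and were the sites with the 5 strongest GATA2 peaks. Sites 18 and 38 were 3-target sites in WT and had GATA2 and RUNX1 without an SMC3 call in Q592*. Site 18 had 0.348 SMC3 reads per M in WT, and site 38 (135497662 to 135498120), 15.2 kb on the HBS1L side of site 42, had 0.415. Site 38 also had GATA2 at 0.764 in Q592* and 0.465 in WT, and RUNX1 at 0.590 in Q592* and 0.506 in WT.

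Of the sites with all 3 targets in both lines, site 24 had RUNX1 at 0.778 reads per M in Q592* and 0.439 in WT, and SMC3 at 0.546 in Q592* and 0.560 in WT. Site 26 had SMC3 at 0.385 in Q592* and 0.396 in WT. Site 43 had its highest SMC3 peak at 0.621 in Q592* and 0.792 in WT, and its highest RUNX1 peak at 0.553 and 0.468. Site 2 had RUNX1 at 0.300 in Q592* and 0.229 in WT and SMC3 at 0.289 in Q592* and 0.280 in WT, beside the GATA2 coverage of 2.39 and 1.13. GATA2 and RUNX1 coverage was higher in Q592* at all 5 sites, as at 98.5% of shared GATA2 and 97.4% of shared RUNX1 regions genome-wide. Every GATA2 interval lay above 0, but the RUNX1 intervals at sites 2 and 43 included 0. Both RUNX1 ratios at site 43 were below 0 with the local background subtracted (-0.27 and -0.18). On the scale of reads per M, SMC3 coverage was higher in Q592* at sites 2 and 42 and lower at sites 24, 26 and 43, with every interval including 0. Relative to the genome-wide mean coverage of its own list, SMC3 was lower in Q592* at site 2 too (log2 ratio -0.22). On that scale the ratio at site 42 was 0.05, and the interval at site 43 lay below 0. By the deposited folds SMC3 was lower in Q592* at all 5 sites, and genome-wide it was higher in Q592* at 42.7% of shared regions. The GATA2 fold was lower in Q592* at site 42 (log2 ratio -0.081) and higher at sites 2, 24, 26 and 43. The RUNX1 fold was lower at both peaks of site 43 (-1.041 and -0.635) and at the stronger shared peak of site 42 (-0.014). It was higher at the other shared peak of site 42 (0.754) and at sites 2, 24 and 26.

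The sites with 2 targets over both lines were 8, and 2 of them had the same targets in each line. Site 21 (135418147 to 135418773) carried GATA2, at 1.06 reads per M in Q592* and 0.670 in WT, and RUNX1, at 0.675 and 0.506. Site 31 (135468808 to 135469405) carried GATA2, at 1.13 in Q592* and 0.846 in WT, and SMC3, at 0.482 and 0.551. Site 14 (135395001 to 135395529) had GATA2 in both lines, at 1.44 in Q592* and 0.967 in WT, and RUNX1 in WT alone, at 0.353. The others were sites 15, 17, 19, 25 and 36, of which sites 25 and 36 had GATA2 in both lines and SMC3 in WT alone. Site 25 (135436907 to 135437216) had GATA2 at 0.453 in Q592* and 0.325 in WT, and SMC3 at 0.357 in WT. Site 36 (135494344 to 135495366) had GATA2 at 1.25 in Q592* and 0.716 in WT, and SMC3 at 0.415 in WT. Site 17 had GATA2 in Q592* alone, at 0.642, and SMC3 in WT alone, at 0.367. Site 15 was called in Q592* alone, for GATA2 at 0.434 and SMC3 at 0.289. Site 19, from 135415613 to 135415869, was called in WT alone, for GATA2 at 0.307 and RUNX1 at 0.372.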

How the data were processed

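The samples were 11 ChIP libraries and 4 inputs of TF-1 cells, grouped by their titles. The 6 lists are pooled calls, 1 per line and target, as their peak names say. Bowtie2, Picard, MACS2 and the hg19 build are named per the submitters' processing notes, with neither versions nor settings. For each peak the authors deposited a fold enrichment, a −log10 p-value and −log10 q-value, and a score that was not used. Coordinates are counted from 1.

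Reads over each summit, the local background and list totals were recovered from the fold and −log10 p. A whole number of reads, the best of several tried per peak, matched the deposited −log10 p to within 0.002 for 100% of peaks in every list. With the worth of a read set wrong by 3%, at most 0.66% matched. Only 1 number was tried per peak there, so the 2 shares are not like for like. Totals assume an effective genome of 2700000000 bp and a fragment as long as the narrowest peak (126 to 157 bp). Background pools recovered this way held 72.6 to 78.0 M reads in Q592* and 86.7 to 95.3 M in WT. Which inputs entered each call is not given. Whether the assumed fragment length makes the pools of a line differ between lists was not tested, and an error in it would shift the ratios of reads per M. The recovery was tested on simulated data. A region of a target joins peaks of both lines that overlap by at least 1 bp, and ratios use the strongest peak of each line in it, with exact conditional binomial intervals at 95%. The window, genes and lists were chosen with earlier results of these data known. Sites were named by rule: all with 2 or more targets, all with SMC3 in 1 line alone, and the strongest peak of each list. Sites 1, 6, 7, 8, 9, 12, 20, 22, 27, 30, 39 and 45 were chosen after their values were seen. Placing sites in exons, introns or promoters and searching words under peaks had been planned and were not done, since hg19 annotation and sequence were not used here. Promoters and gene order are from RefSeq (GRCh38.p14), where both genes matched by symbol. Python 3.11.15 was used with scipy 1.17.1, pandas 2.3.3, numpy 2.4.6 and, for plots, matplotlib 3.10.9.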

Additional observations from a re-analysis of the deposited data

How the results depend on the processing

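No paired analysis was possible because each list is pooled over its libraries and carries no replicate numbers, and for the same reason leaving out a library was not done. Of 75 alternative values, 53 kept within 1.5 times the reported count, or within the counting interval of the reported ratio, including all with any part of a peak in the window, summits within 200 bp, no depth scaling and the local background subtracted, the last chosen after the data were seen.

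With a −log10 q of at least 10, the window held 12 WT GATA2, 9 WT RUNX1, 5 Q592* SMC3 and 8 WT SMC3 peaks, 0 WT-only GATA2, 7 shared RUNX1, 4 shared SMC3 and 4 WT-only SMC3 regions, and 1 site (Q592*) and 2 sites (WT) with all 3 targets. Equal list lengths gave 6 Q592*-only GATA2 regions, 0 Q592*-only and 6 WT-only RUNX1 regions, 15 WT SMC3 peaks, 5 WT-only SMC3 regions and 3 Q592* sites with all 3 targets. A reciprocal overlap of 50% gave 2 Q592*-only RUNX1 and 3 Q592*-only SMC3 regions. The ratio of deposited folds had medians of 0.22 (GATA2), 0.011 (RUNX1) and -0.41 (SMC3), the last of opposite sign to the reads ratio. Per base of fragment, SMC3 gave -0.10, also of opposite sign, because the assumed fragment was longer in Q592* by 0.26 on the log2 scale. The cause of the other changes was not tested. Peaks under the lists' thresholds and the small counts per site limit all values.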
